A study of Homo sapiens with 8 samples.

Results

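Gene expression was compared between A2780 ovarian carcinoma cells exposed to temsirolimus for 48 h and cells labelled as the subline A2780CP20 without drug. The members were taken by sample title, which gave 2 arrays for the 48 h group and 2 arrays for A2780CP20, or 4 of the 8 arrays measured. The other 4 arrays held untreated A2780 and A2780 exposed to temsirolimus for 24 h, with 2 arrays each, and are used as reference levels and for the estimate of the spread. Expression was described across 18417 genes. All cells were kept in RPMI with fetal bovine serum, and the temsirolimus stock was dissolved in DMSO. The labels give no dose, do not say whether the cells without drug received DMSO, and do not say whether the replicates were separate cultures. The p-values therefore reflect no more than the scatter among the arrays at hand, and that scatter could be technical. Because the groups differed in both cell line and drug, contributions of the subline and of temsirolimus to a difference cannot be told apart from this contrast alone. The untreated A2780 level is therefore given for most genes described in full.

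As background, A2780 is a human ovarian carcinoma line, and A2780CP20 is known as a derivative selected with cisplatin. Temsirolimus is an ester of rapamycin that binds the immunophilin FKBP1A and inhibits the kinase complex mTORC1, which drives protein synthesis, ribosome production, sterol and amino acid metabolism and represses autophagy. AKT, upstream of mTORC1, keeps the FOXO transcription factors out of the nucleus, and FOXO targets slow growth. FKBP1A also binds type I receptors of the BMP and TGF-beta family, whose SMAD effectors induce the ID genes and feedback inhibitors. TXNIP, which binds thioredoxin and limits glucose uptake, is a target of the glucose-sensing factor MondoA (MLXIP).

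The labels were set against the data before any comparison. Across genes the replicate arrays correlated at r = 0.997 at 48 h and 0.991 for A2780CP20, and the SD of the differences between replicates was 0.166 and 0.287 log2 units, so the spread was larger between the arrays labelled A2780CP20. The 48 h arrays correlated with untreated A2780 at 0.994 to 0.996 and with the arrays labelled A2780CP20 at 0.979 to 0.989. The arrays labelled 24 h stood apart, at 0.950 to 0.952 with all 6 others, and whether that belongs to the drug or to the label was not tested. ABCB1, a drug efflux pump, read 8.31 and 8.05 on the arrays labelled 24 h, 4.67 and 4.63 at 48 h, 4.91 and 4.70 on the arrays labelled A2780CP20 and 4.88 and 4.86 in untreated A2780. Whether the labels 24 h and A2780CP20 were exchanged was not tested. Had they been, the arrays called A2780CP20 here would hold drug-exposed A2780, and every difference given below would compare 2 exposure times. The labels were kept as given, and A2780CP20 stands for the arrays so labelled throughout. Of 20 measured ovarian and Mullerian carcinoma markers none was called higher (0 also at an unadjusted p under 0.05 in limma) and 4 were called lower at 48 h, a count of 0 without either 48 h array and 2 without any other 1 array except A2780CP20 replicate 2. The 4 lower calls were 20% of the list, against 9.16% of all genes. These markers averaged 6.32 at 48 h and 6.53 to 6.58 in A2780CP20. SOX17 read 7.44 and 7.31 at 48 h and 7.92 and 7.65 in A2780CP20. PAX8 read 6.52 and 6.43 at 48 h and 6.71 and 6.77 in A2780CP20, near the array medians of 6.66 to 6.72. The epithelial adhesion gene EPCAM read 5.48 and 5.56 against 5.26 and 5.34, close to the lower quartile of the arrays (5.03 on the array where it was lowest). Leukocyte markers averaged 5.45 to 5.50 at 48 h and 5.63 to 5.76 in A2780CP20, and endothelial markers 5.41 to 5.51 and 5.52 to 5.66. The leukocyte gene PTPRC read 3.84 to 3.92 and 3.95 to 4.06. Fibroblast and pericyte markers averaged 7.98 to 7.99 and 7.80 to 7.85. In bulk RNA, fewer cells of a type and less RNA per cell cannot be told apart.

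Temsirolimus-exposed A2780 and A2780CP20 differed widely but by small amounts. By limma, 4175 of 18417 genes (22.7%) were called at an adjusted p under 0.05, with 2488 (13.5%) higher at 48 h and 1687 (9.16%) lower. At least 2-fold differences were few and lopsided: 144 called genes (0.782%), of which 140 were higher at 48 h and 4 were lower. The largest called difference was 4.58-fold upward, in TCP11L2, and 2.33-fold downward, in SLCO4A1, and the median over all genes was -0.07 on the log2 scale. The arrays of the 2 groups did not overlap in 11600 genes (63.0%), so absence of overlap alone sets few genes apart. The count of calls depended on single arrays. It was 756 without 48 h replicate 2, 1919 without 48 h replicate 1 and 6759 without A2780CP20 replicate 2, and at least 2-fold calls numbered 381 without A2780CP20 replicate 2. Without both arrays labelled 24 h it was 3147, with 2016 higher and 1131 lower. At an unadjusted p under 0.05 limma gave 7245 genes. Some counts of 1 or 2 calls within a gene list changed when an array was left out, and such counts are given as counts only.

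**Figure D1:**
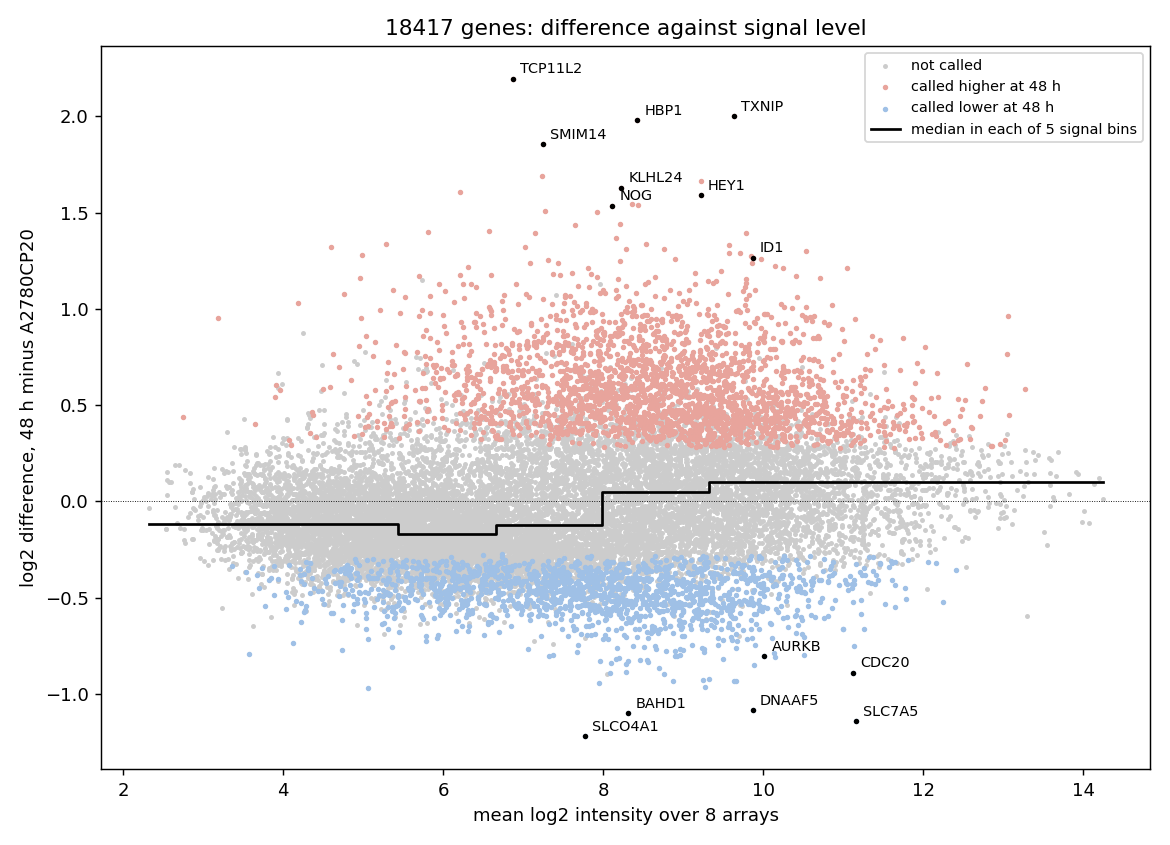
Log2 difference (48 h minus A2780CP20, group means of 2 arrays) against the mean log2 intensity over 8 arrays, with 1 point per gene for 18417 genes. Red points were called higher and blue points lower at 48 h by limma. The black steps are the median difference in each of 5 equal bins of signal, from -0.17 in the bin next to the dimmest to 0.10 in the brightest.

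The largest excess at 48 h was in TCP11L2, TXNIP and HBP1, from 3.94-fold to 4.58-fold, and KLHL24, HEY1 and NOG were higher by 2.9-fold to 3.1-fold. TCP11L2, a gene reported among FOXO targets, read 8.13 and 8.22 at 48 h, 5.75 and 6.21 in A2780CP20 and 7.85 and 7.96 in untreated A2780. Its difference was 2.20 ± 0.15 on the log2 scale (SE, n = 2 arrays per group, limma adjusted p = 0.000691). TXNIP read 10.33 and 10.27 at 48 h, 8.14 and 8.46 in A2780CP20 and 10.90 and 10.81 in untreated A2780, a difference of 2.0 ± 0.12 (limma adjusted p = 0.000691). For both genes the 48 h and untreated arrays lay well above the A2780CP20 arrays, and for TXNIP the 48 h arrays were below untreated A2780. The arrays labelled 24 h read 5.50 and 5.35 for TCP11L2, lower than A2780CP20, and 9.16 and 8.99 for TXNIP. HBP1, a repressor of cell cycle genes, read 9.46 and 9.45 at 48 h against 7.24 and 7.71 in A2780CP20, with 9.24 and 9.40 in untreated A2780 (difference 1.98 ± 0.15, limma adjusted p = 0.000741). KLHL24, an adaptor of a ubiquitin ligase, read 9.05 and 9.16 against 7.42 and 7.53, with untreated A2780 at 9.04 and 9.03 (1.63 ± 0.10, limma adjusted p = 0.000691). The arrays labelled 24 h read 7.54 and 7.36 for HBP1 and 7.20 and 7.36 for KLHL24, about as low as A2780CP20. Besides HEY1 and NOG, the others of the 15 named genes with the largest excess were SMIM14, PCMTD1, PCDHB14, SLC38A9, PNPLA8, ZNF277, YPEL5, ABRAXAS1 and CFAP206. SLC38A9, a lysosomal arginine sensor of mTORC1, differed by 1.54 ± 0.14, and the phospholipase gene PNPLA8 by 1.51 ± 0.12. PCDHB14 belongs to a family of near-identical genes, so its value is uncertain.

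HEY1 and NOG departed from that arrangement. HEY1, a transcriptional repressor induced by Notch and BMP signals, read 10.28 and 10.25 at 48 h, 8.70 and 8.65 in A2780CP20 and 8.43 and 8.45 in untreated A2780 (difference 1.59 ± 0.08, limma adjusted p = 0.000606). NOG, the secreted BMP antagonist noggin, read 9.89 and 9.86 at 48 h, 8.32 and 8.36 in A2780CP20 and 8.15 and 8.08 in untreated A2780 (difference 1.54 ± 0.17, limma adjusted p = 0.00182). Here the 48 h arrays were the high ones, with both untreated lines low and near each other. The arrays labelled 24 h differed between the genes. They read 9.48 and 9.52 for HEY1, between 48 h and both untreated lines, and 6.43 and 5.81 for NOG, below both untreated lines. Among the 15, the untreated A2780 mean lay nearer the 48 h mean in 13 and nearer the A2780CP20 mean in these 2. The 15 were chosen on the 48 h and A2780CP20 arrays, so these counts are a description.

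**Figure D2:**
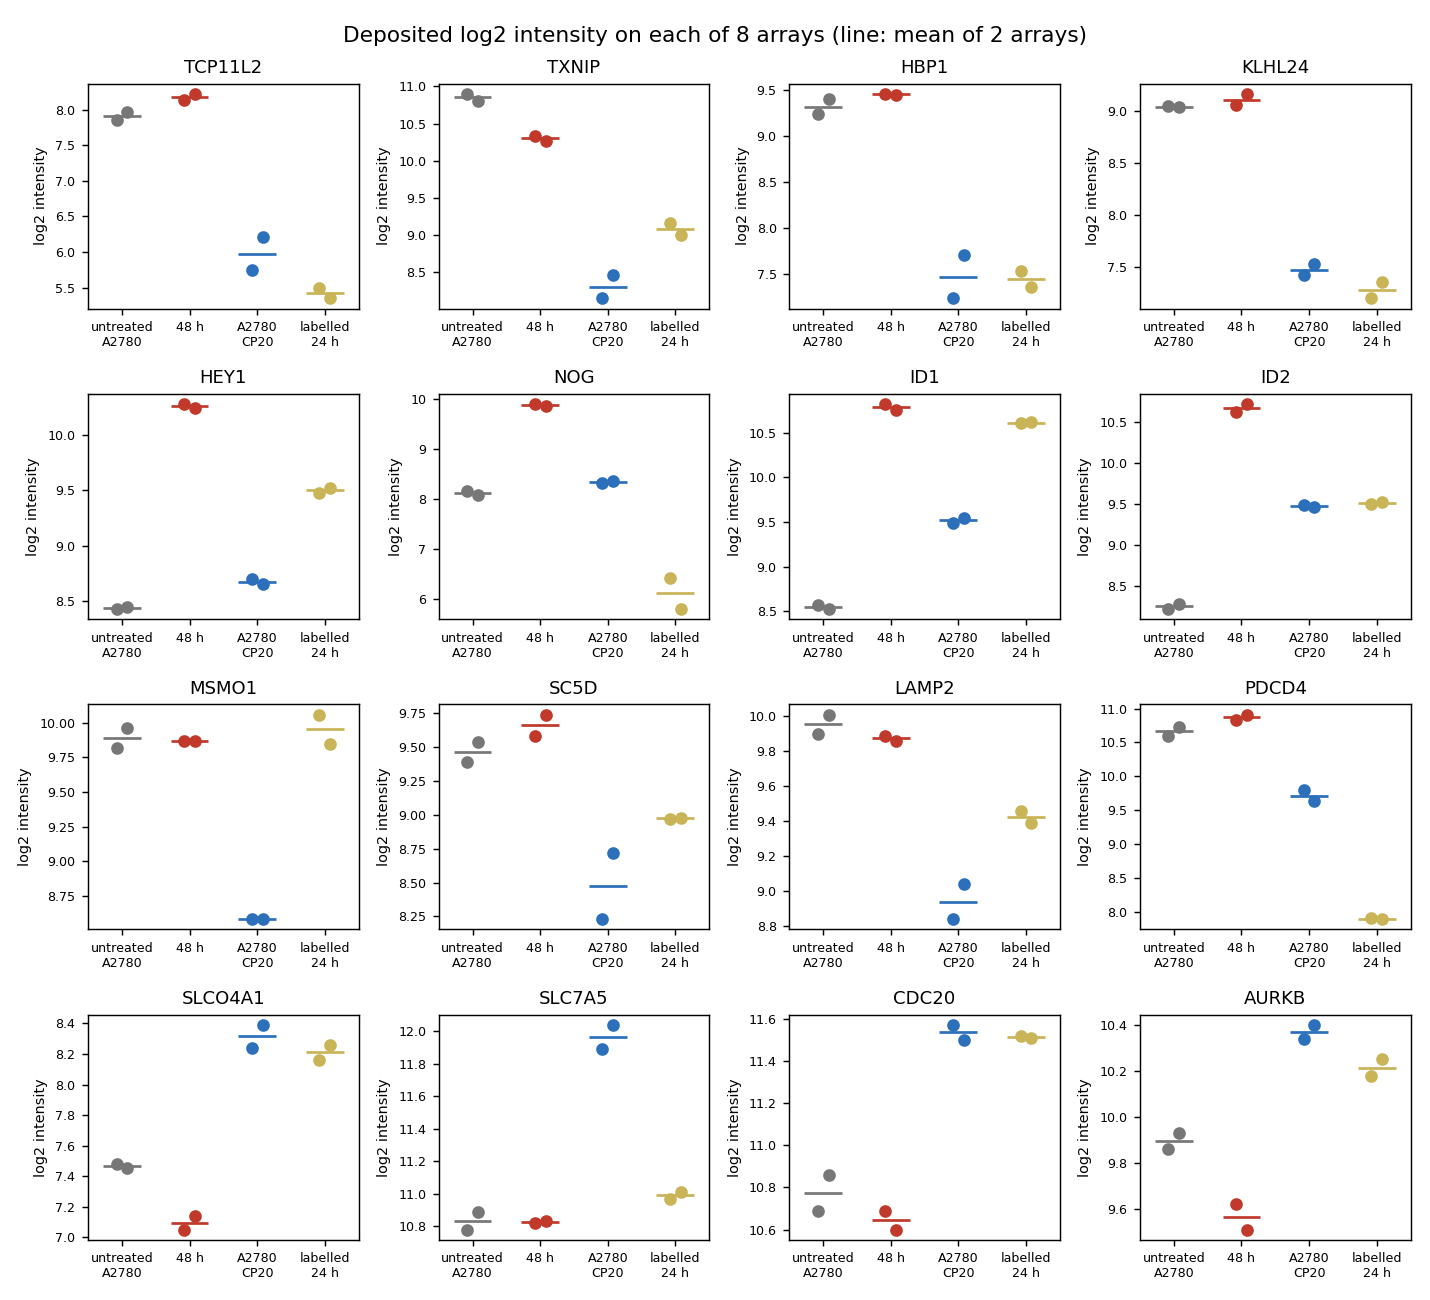
Deposited log2 intensity of 16 genes on each of the 8 arrays, by group, with a line at the mean of the 2 arrays. The vertical axes differ between panels and do not start at 0. TXNIP, HBP1 and TCP11L2 were lower in A2780CP20 than in the 48 h and untreated A2780 arrays, whereas HEY1, NOG and ID1 were higher at 48 h than in both untreated lines.

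Promoters are shown for the 3 genes with the largest excess, which hold the same forkhead-type letters, and for CDC20, the member of the G2/M list with the largest deficit. Each line gives the 250 bases before the RefSeq start (build GRCh38.p14), written 5′ to 3′ on the strand of the gene. TXNIP lies at chr1:145996580-145996829 on the minus strand, TCP11L2 at chr12:106302483-106302732, HBP1 at chr7:107168753-107169002 and CDC20 at chr1:43358731-43358980, these 3 on the plus strand. Capitals mark GTAAACA, a core that FOXO and other forkhead factors bind, in TXNIP, TCP11L2 and HBP1, CACGAG, the half-site of carbohydrate response elements, in TXNIP, and TTTGAA, the core of the cell cycle homology region, on either strand in CDC20.
TXNIP: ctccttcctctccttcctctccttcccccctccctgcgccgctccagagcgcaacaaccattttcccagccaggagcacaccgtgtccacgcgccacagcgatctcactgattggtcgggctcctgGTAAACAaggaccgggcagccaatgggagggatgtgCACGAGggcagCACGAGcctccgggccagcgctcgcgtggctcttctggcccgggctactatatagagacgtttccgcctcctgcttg
TCP11L2: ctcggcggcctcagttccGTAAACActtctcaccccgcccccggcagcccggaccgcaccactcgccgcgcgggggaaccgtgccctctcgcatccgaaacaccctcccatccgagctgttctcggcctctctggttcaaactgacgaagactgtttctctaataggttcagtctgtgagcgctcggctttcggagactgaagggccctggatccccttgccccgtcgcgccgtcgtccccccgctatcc
HBP1: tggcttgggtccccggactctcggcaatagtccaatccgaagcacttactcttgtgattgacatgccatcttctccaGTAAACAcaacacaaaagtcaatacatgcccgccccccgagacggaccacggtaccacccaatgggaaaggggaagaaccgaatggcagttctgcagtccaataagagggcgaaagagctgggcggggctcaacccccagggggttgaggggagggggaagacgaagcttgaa
CDC20: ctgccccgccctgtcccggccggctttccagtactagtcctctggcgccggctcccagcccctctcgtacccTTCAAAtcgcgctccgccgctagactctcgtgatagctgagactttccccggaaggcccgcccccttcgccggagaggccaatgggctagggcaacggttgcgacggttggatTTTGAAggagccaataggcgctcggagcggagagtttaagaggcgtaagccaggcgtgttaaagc

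These motifs were chosen after the values were seen and were searched on both strands in 300 bases, from 250 before to 50 after the start, in the 14237 tested genes with a RefSeq promoter. GTAAACA began 124 bases before the start in TXNIP, 232 in TCP11L2 and 173 in HBP1. It occurred in 3 of the 12 largest excess genes with a promoter (25%), in none of 13 among the 15 genes with the largest deficit, and in 349 of all promoters (2.45%). In the FOXO list 4 of 18 promoters held it (22.2%), those of FOXO4, HBP1, BTG1 and TCP11L2. CACGAG stood at 88 and 77 bases before the TXNIP start and in 7.61% of all promoters. It was in 1 of the 12 largest excess genes (8.33%, TXNIP) and in 3 of the 13 with the largest deficit (23.1%), those of BAHD1, CDC20 and IRAK1. TTTGAA was in 20 of 29 promoters of the G2/M list (69%), CDC20 included, and in 11.9% of all. It was also in 4 of the 12 largest excess genes (33.3%), those of CFAP206, PCDHB14, PNPLA8 and TCP11L2, and in 1 of the 13 with the largest deficit (7.69%, CDC20). CACGTG was also searched and was in 8.88% of all promoters. It was in none of the 12 largest excess genes and in 3 of the 13 with the largest deficit (23.1%), those of CCDC86, DNAAF5 and SLC7A5. Of 11 promoters of the list of TXNIP and its relatives 3 held it (27.3%), those of ARRDC4, MLX and MXD4. The CACGAG match of CDC20 and the TTTGAA match of TCP11L2 are not in capitals above. A match describes these letters only and is not a measured binding site.

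The largest deficit at 48 h was in SLCO4A1 and SLC7A5, both membrane transporters, and the mitotic regulators CDC20 and FOXM1 were among the 15 largest. SLCO4A1, an organic anion transporter, read 7.05 and 7.14 at 48 h, 8.24 and 8.39 in A2780CP20 and 7.48 and 7.45 in untreated A2780 (-1.22 ± 0.10, limma adjusted p = 0.000741). SLC7A5, the light chain of the LAT1 leucine transporter, read 10.82 and 10.83 at 48 h, 11.89 and 12.04 in A2780CP20 and 10.78 and 10.89 in untreated A2780 (-1.14 ± 0.09, limma adjusted p = 0.000877). The A2780CP20 arrays were high for both genes, and the arrays labelled 24 h read 8.16 and 8.26 for SLCO4A1. For SLC7A5 the 48 h values lay within the range of untreated A2780, with the arrays labelled 24 h at 10.97 and 11.01. BAHD1, a component of heterochromatin, was lower by 2.14-fold, and DNAAF5, an assembly factor of dynein arms, by 2.12-fold. CDC20, an activator of the anaphase-promoting complex, read 10.69 and 10.60 at 48 h, 11.57 and 11.50 in A2780CP20 and 10.69 and 10.86 in untreated A2780 (-0.89 ± 0.10, limma adjusted p = 0.00157). FOXM1, a transcription factor of mitotic genes, read 9.26 and 9.22 against 10.00 and 10.34, with untreated A2780 at 9.34 and 9.49 (-0.93 ± 0.12, limma adjusted p = 0.0026). Others of the 15 were CCDC86, INA, IRAK1, CKB, PSRC1, SLC25A22, TLNRD1, PKN3 and the divergent transcript CTDP1-DT. The untreated A2780 mean lay nearer the 48 h mean in 14 of these 15.

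ID genes and BMP feedback inhibitors were higher in temsirolimus-exposed A2780 than in A2780CP20. Of 18 measured BMP target and feedback genes, 9 were called higher (50%, against 13.5% of all genes) and none lower (0 also at an unadjusted p under 0.05 in limma), with a median of 0.43 against -0.07 over all genes. ID1, an inhibitor of basic helix-loop-helix factors, read 10.82 and 10.75 at 48 h, 9.49 and 9.55 in A2780CP20 and 8.57 and 8.53 in untreated A2780 (1.26 ± 0.09, limma adjusted p = 0.000691). ID2, of the same family, read 10.62 and 10.72 at 48 h, 9.49 and 9.46 in A2780CP20 and 8.22 and 8.28 in untreated A2780 (1.20 ± 0.09, limma adjusted p = 0.000722). In both genes these 3 groups formed separate steps, highest at 48 h, intermediate in A2780CP20 and lowest in untreated A2780. ID4 differed by 0.70 ± 0.10 and ID3 by 0.61 ± 0.09, with the same order of these 3 group means. The arrays labelled 24 h read 10.61 and 10.62 for ID1, near 48 h, and 9.50 and 9.52 for ID2, level with A2780CP20. For ID4 they read 10.66 and 10.51, which overlapped 48 h. SMAD7, which blocks the receptors, read 8.40 and 8.42 at 48 h, 7.70 and 7.49 in A2780CP20 and 7.40 and 7.50 in untreated A2780 (0.81 ± 0.10). SMAD6, the BMP-selective inhibitory SMAD, was higher by 1.37-fold (0.45 ± 0.10, limma adjusted p = 0.0133), a call lost without either 48 h array. BAMBI, a pseudoreceptor, was higher by 1.85-fold. The untreated A2780 mean was below the A2780CP20 mean in 8 of the 9 called genes, with BAMBI the exception.

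The remaining 9 members were not called. SMAD9 differed by 0.41 ± 0.15 (limma adjusted p = 0.0769), with 8.56 and 9.01 in A2780CP20 against 9.22 and 9.18 at 48 h, and it was called only without A2780CP20 replicate 2. In untreated A2780 SMAD9 read 7.94 and 7.84, below both groups. MSX1, MSX2, ATOH8, GREM1, CHRDL1 and FST had differences between -0.33 and -0.01, and the ubiquitin ligases SMURF1 and SMURF2 of 0.01 and 0.10. Over 19 alternatives 8 to 11 members were called higher, and 9 without both arrays labelled 24 h. MSX1 (-0.55) and GREM1 (-0.37) were called lower without A2780CP20 replicate 2. Upstream in the pathway, 4 of 19 ligands, receptors and signal transducers were called higher (21.1%) and 1 lower. The type II receptor gene BMPR2 read 10.68 and 10.85 at 48 h against 9.31 and 10.23 in A2780CP20, whose replicates lay far apart (0.99 ± 0.24, limma adjusted p = 0.0223), and its call was lost without either 48 h array. In untreated A2780 BMPR2 read 9.90 and 9.95, between the 2 A2780CP20 arrays. The ligand gene BMP5 read 8.87 and 9.02 at 48 h against 7.97 and 7.92, with untreated A2780 higher than both at 9.45 and 9.48. ACVR2A, an activin type II receptor, was higher by 1.65-fold, a call lost without 48 h replicate 2. Without 48 h replicate 1 the list had 2 higher calls, and without 48 h replicate 2 it had 1. In the TGF-beta list 3 of 15 were called higher (20%) and 2 lower (13.3%), against 13.5% and 9.16% of all genes. SKIL, a SMAD co-repressor induced by TGF-beta, read 11.26 and 11.28 at 48 h, 9.89 and 10.05 in A2780CP20 and 10.60 and 10.73 in untreated A2780 (1.30 ± 0.10), and the receptor gene TGFBR1 was higher by 1.92-fold. The lower calls of TGFB1 and TGFBI were lost without either untreated array, either 24 h array or either 48 h array. Of 20 Notch pathway genes HEY1 was the 1 called higher. JAG2, NOTCH1 and DLL3 were called lower (15%, against 9.16% of all genes), and the median was -0.25. The lower calls of that list numbered 10 without A2780CP20 replicate 2 and 1 without 48 h replicate 2.

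**Figure D3:**
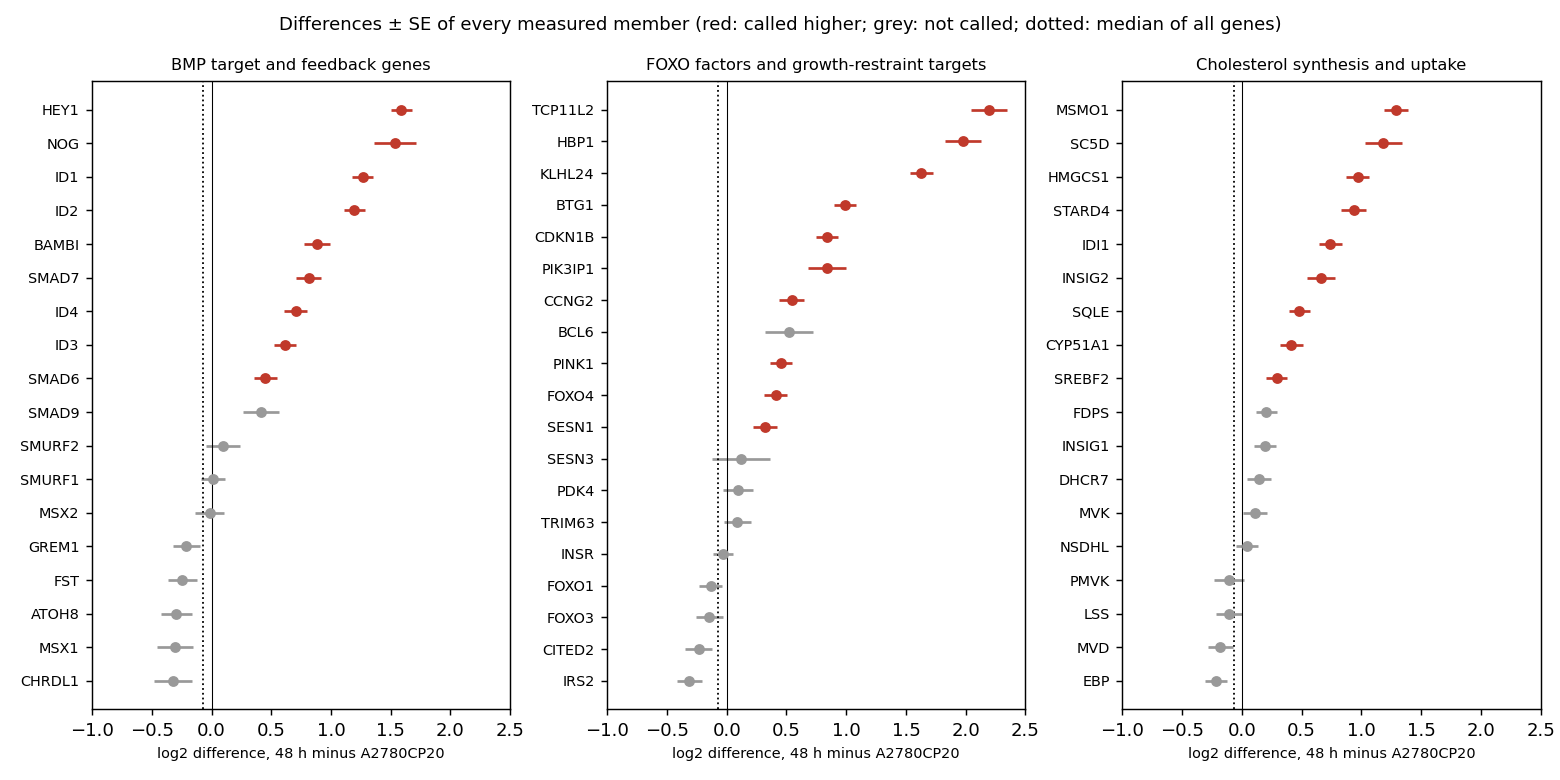
Log2 difference (48 h minus A2780CP20) ± SE of every measured member of 3 gene lists, from the limma fit with 2 arrays per group. Red members were called higher, grey members were not called, and the dotted line is the median of all genes, -0.07. The largest differences were HEY1 and NOG in the first list, TCP11L2 and HBP1 in the second and MSMO1 and SC5D in the third.

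Growth-restraint genes of the FOXO list were also higher at 48 h than in A2780CP20, several of them at about the level of untreated A2780. Of 19 measured, 10 were called higher (52.6%, against 13.5% of all genes) and none lower (1 at an unadjusted p under 0.05 in limma). The median was 0.41, against -0.07 over all genes. BTG1, an anti-proliferative gene, read 10.55 and 10.50 at 48 h, 9.51 and 9.56 in A2780CP20 and 10.60 and 10.47 in untreated A2780 (0.99 ± 0.09, limma adjusted p = 0.00119). CDKN1B, which encodes the CDK inhibitor p27, read 10.54 and 10.51 against 9.75 and 9.62, with 10.45 and 10.50 in untreated A2780 (0.84 ± 0.09, limma adjusted p = 0.00156). For both genes the A2780CP20 arrays were below the 48 h and untreated A2780 arrays. The arrays labelled 24 h were lower still, at 8.12 and 8.0 for BTG1 and 9.34 and 9.31 for CDKN1B. The other called members besides TCP11L2, HBP1 and KLHL24 were PIK3IP1, CCNG2, PINK1, FOXO4 and SESN1, between 0.32 and 0.84. FOXO1 and FOXO3 themselves differed by -0.14 ± 0.10 and -0.14 ± 0.11 and were not called. The count was 6 without 48 h replicate 1, 5 without 48 h replicate 2 and 9 without both arrays labelled 24 h, and 2 members were called lower without A2780CP20 replicate 1.

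TXNIP and its relatives divided in direction. Of 11 genes of the TXNIP, arrestin-domain and MondoA list, 3 were called higher (27.3%) and 2 lower (18.2%), against 13.5% and 9.16% of all genes. ARRDC3, an arrestin that acts in receptor traffic, read 9.76 and 9.84 at 48 h against 8.55 and 8.78 in A2780CP20 (1.14 ± 0.10, limma adjusted p = 0.00112), and ARRDC4 read 7.17 and 7.12 against 5.97 and 6.17 (1.07 ± 0.10, limma adjusted p = 0.00117). Untreated A2780 lay at 9.74 and 9.68 for ARRDC3 and at 7.17 and 7.04 for ARRDC4, level with the 48 h arrays. MLXIP itself was lower at 48 h, at 8.07 and 8.25 against 8.80 and 9.17, and the hexokinase gene HK2 at 9.66 and 9.66 against 10.27 and 10.18. Untreated A2780 read 8.20 and 8.06 for MLXIP and 9.65 and 9.65 for HK2. The call of HK2 was lost without 48 h replicate 2. ARRDC1, ARRDC2, MLX, MLXIPL and MXD4 were not called, with differences from -0.26 to 0.05. The glucose transporter gene SLC2A1 differed by -0.30 ± 0.09 (limma adjusted p = 0.0501) and was called in 7 of 19 alternatives.

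Sterol synthesis genes were higher at 48 h than in A2780CP20. Of 18 genes of cholesterol synthesis and uptake 9 were called higher (50%, against 13.5% of all genes). None was called lower (1 at an unadjusted p under 0.05 in limma), and the median was 0.25. MSMO1, a demethylase of sterol intermediates, read 9.87 and 9.87 at 48 h, 8.58 and 8.58 in A2780CP20 and 9.82 and 9.96 in untreated A2780 (1.29 ± 0.10, limma adjusted p = 0.000741). SC5D, a sterol desaturase, read 9.58 and 9.74 against 8.23 and 8.72, with untreated A2780 at 9.39 and 9.54 (1.19 ± 0.15, limma adjusted p = 0.00242). HMGCS1, which makes the precursor of mevalonate, was higher by 1.96-fold and the sterol carrier gene STARD4 by 1.91-fold. The other called members were IDI1, INSIG2, SQLE, CYP51A1 and SREBF2, between 0.29 and 0.74, and MVK, MVD, LSS, EBP and DHCR7 were among the 9 not called. Without 48 h replicate 2 the count was 5. The 14 genes of fatty acid synthesis gave 2 calls in each direction (14.3% each, against 13.5% higher and 9.16% lower over all genes). ELOVL6 (0.71 ± 0.11) and SCD (0.28 ± 0.08) were higher. The regulator SREBF1 (-0.78 ± 0.10) and the synthase FASN (-0.40 ± 0.11) were lower. SREBF1 was called in all 19 alternatives. ELOVL6 lost its call without 48 h replicate 2, SCD without any 1 array except A2780CP20 replicate 2, and FASN without any 1 array of the 24 h, 48 h or A2780CP20 groups.

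Genes of amino acid supply, tRNA charging and ribosome production were among those lower at 48 h, SLC7A5, SLC1A5 and CCDC86 among them. Of 30 ATF4 targets and amino acid genes 10 were called lower (33.3%, against 9.16% of all genes) and 2 higher, with a median of -0.20. SLC1A5, the glutamine transporter, read 9.80 and 9.85 at 48 h, 10.77 and 10.50 in A2780CP20 and 9.78 and 9.78 in untreated A2780 (-0.81 ± 0.11, limma adjusted p = 0.00254). CTH, which makes cysteine from cystathionine, went the other way, at 8.29 and 8.56 at 48 h, 7.42 and 7.36 in A2780CP20 and 7.79 and 7.81 in untreated A2780 (1.03 ± 0.12). SLC38A2, a sodium-coupled neutral amino acid transporter, was also higher, by 1.64-fold. Without 48 h replicate 2 the lower calls numbered 3, and the call of SLC38A2 was lost. Of 19 aminoacyl-tRNA synthetases 6 were called lower (31.6%) and 2 higher (10.5%, against 13.5% of all genes), with a median of -0.25. VARS1 was lower by 1.57-fold, CARS1 by 1.52-fold and GARS1 by 1.42-fold. The calls of CARS1 and GARS1 were lost without 48 h replicate 2. The lower calls numbered 1 without that array, and 11 with quantile normalization or cyclic loess, under which none was called higher. Of 26 ribosome biogenesis factors 6 were called lower, 1 without 48 h replicate 2. Those 6 were 23.1% of the list, against 9.16% of all genes. CCDC86, a nucleolar protein, read 8.86 and 8.62 at 48 h, 9.74 and 9.67 in A2780CP20 and 8.76 and 8.65 in untreated A2780 (-0.96 ± 0.11). Of 23 cytosolic ribosomal protein genes 4 were called higher and none lower (0 also at an unadjusted p under 0.05 in limma), but 3 of the 4 were lost with quantile normalization and without either 24 h or either 48 h array, and 2 without either untreated array. RPL22, the largest of them (0.95 ± 0.10), has many processed pseudogenes and is uncertain. The 4 calls were 17.4% of that list, against 13.5% of all genes called higher.

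Components of the mTOR and PI3K-AKT pathway differed in both directions, with PDCD4 and RICTOR higher and AKT1, MLST8 and RPTOR lower at 48 h. Of 22 measured, 5 were called lower (22.7%, against 9.16% of all genes) and 2 higher (9.09%, against 13.5%). The median was -0.01. MTOR did not differ beyond its error (0.04 ± 0.10), nor did FKBP1A (-0.10 ± 0.11). RICTOR, of mTORC2, read 7.81 and 7.87 at 48 h against 7.0 and 7.50 in A2780CP20 (0.59 ± 0.15, limma adjusted p = 0.0265), and its call was lost without A2780CP20 replicate 1 or either 48 h array. RPTOR, of mTORC1, read 8.80 and 8.85 against 9.15 and 9.13 (-0.32 ± 0.09, limma adjusted p = 0.0329) and lost its call in 10 of 19 alternatives, among them without either 48 h array, either 24 h array, either untreated array and A2780CP20 replicate 1. AKT1 was lower by 1.43-fold and MLST8 by 1.4-fold, calls lost without 48 h replicate 2. EIF4EBP1, the translation repressor that mTORC1 phosphorylates, was lower by 1.36-fold, a call lost without either 48 h array or A2780CP20 replicate 2. Untreated A2780 read 7.87 and 7.96 for RICTOR and 8.76 and 8.84 for RPTOR. PDCD4, an inhibitor of the helicase EIF4A that S6 kinase marks for destruction, read 10.83 and 10.91 at 48 h, 9.79 and 9.64 in A2780CP20 and 10.60 and 10.73 in untreated A2780 (1.16 ± 0.10, limma adjusted p = 0.000877). On the arrays labelled 24 h PDCD4 read 7.91 and 7.89, lower than A2780CP20. Without 48 h replicate 2 no member of the list was called lower, and 2 were called without 48 h replicate 1. Without A2780CP20 replicate 2 the list had 7 higher calls.

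**Figure D4:**
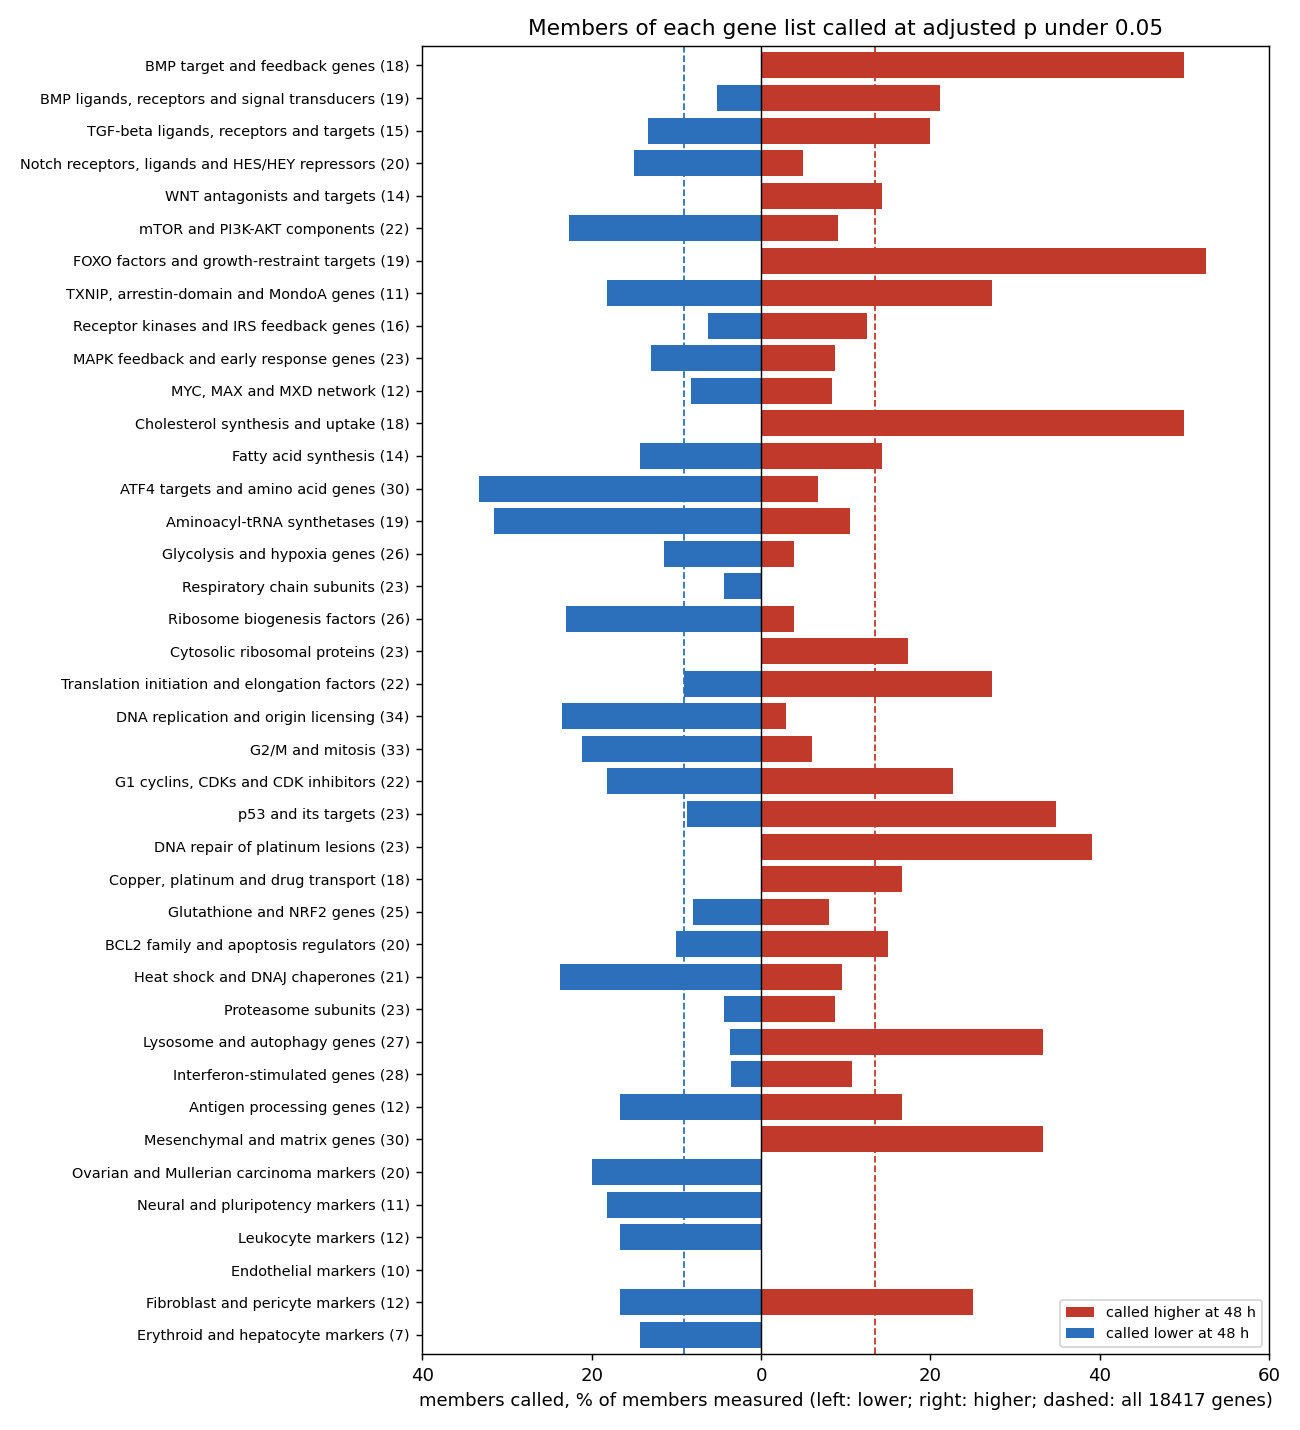
Share of the measured members of each of 40 gene lists called by limma at an adjusted p under 0.05, in percent, to the right for higher at 48 h and to the left for lower, with the number measured in parentheses. Dashed lines mark the shares over all genes, 13.5% higher and 9.16% lower. FOXO, BMP feedback and cholesterol genes had 50% or more of their members called higher and none lower, and ATF4 and tRNA synthetase genes had the largest shares called lower.

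Some mitotic and replication genes were lower at 48 h, and AURKB, PLK1 and CDC20 were among them. Of 33 G2/M genes 7 were called lower (21.2%, against 9.16% of all genes) and 2 higher, with a median of -0.15. AURKB, a mitotic kinase, read 9.62 and 9.51 at 48 h, 10.34 and 10.40 in A2780CP20 and 9.86 and 9.93 in untreated A2780 (-0.81 ± 0.09, limma adjusted p = 0.00182). PLK1, another mitotic kinase, read 10.67 and 10.64 against 11.23 and 11.58, with untreated A2780 at 10.77 and 10.96 (-0.75 ± 0.13, limma adjusted p = 0.0058), and BIRC5, which encodes survivin, was lower by 1.44-fold. The 48 h arrays were the lowest of the 8 for AURKB and PLK1. The lower calls numbered 15 without A2780CP20 replicate 1, 4 without 48 h replicate 1 and 2 without 48 h replicate 2, so this count rests on few arrays, and the calls of PLK1 and BIRC5 were lost without 48 h replicate 2. With quantile normalization and cyclic loess they numbered 12 and 13. Of 34 replication and licensing genes 8 were called lower (23.5%, against 9.16% of all genes) and 1 higher. POLD1, the catalytic subunit of DNA polymerase delta, was lower by 1.53-fold. The lower count of the list fell without either 48 h array and without any 1 of the untreated or 24 h arrays, most without 48 h replicate 2. The G1 list was mixed, with 5 of 22 called higher (22.7%) and 4 lower (18.2%), against 13.5% and 9.16% of all genes. CCNG1 was higher by 1.59-fold and CCND3 lower by 1.54-fold, while CCND1 and CDKN1A did not pass the test (-0.04 ± 0.09 and -0.23 ± 0.09). The G1 counts were 8 higher without A2780CP20 replicate 2, 2 higher and 0 lower without 48 h replicate 2, and 1 lower without 48 h replicate 1.

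Genes of the p53 response and of platinum lesion repair were among those higher at 48 h, with TP53INP1, FANCF and ERCC4 as examples. In the p53 list 8 of 23 were called higher (34.8%) and 2 lower (8.7%), against 13.5% and 9.16% of all genes. At an unadjusted p under 0.05 in limma 9 of that list were higher and 6 lower, so it was mixed in direction. The largest was TP53INP1, a promoter of autophagy and cell death. It read 9.21 and 9.19 at 48 h, 7.79 and 8.44 in A2780CP20 and 8.96 and 9.08 in untreated A2780 (1.08 ± 0.19, limma adjusted p = 0.00679). In the repair list 9 of 23 were called higher (39.1%) and none lower (0 also at an unadjusted p under 0.05 in limma), with a median of 0.15. FANCF, of the Fanconi core complex, read 8.14 and 8.29 against 7.19 and 7.62, with untreated A2780 at 7.98 and 8.13 (0.81 ± 0.16), and ERCC4, a nuclease subunit of excision repair, was higher by 1.57-fold. ERCC1, its partner, did not pass the test (0.08 ± 0.10). The calls of TP53INP1, FANCF and ERCC4 were lost without 48 h replicate 2. The repair count was 5 without 48 h replicate 1 and 0 without 48 h replicate 2, and the p53 count 5 without A2780CP20 replicate 1, 5 without 48 h replicate 1 and 2 without 48 h replicate 2. Of 18 copper, platinum and drug transport genes 3 were called higher (16.7%, near the 13.5% of all genes). None was called lower (0 also at an unadjusted p under 0.05 in limma). The copper exporter gene ATP7A read 8.26 and 8.23 at 48 h, 7.27 and 7.91 in A2780CP20 and 8.14 and 8.14 in untreated A2780 (0.66 ± 0.18, limma adjusted p = 0.0315). ABCC4 (0.45 ± 0.09) and ABCC5 (0.32 ± 0.08) encode drug and nucleotide exporters. The count was 6 without A2780CP20 replicate 2, 1 without 48 h replicate 1 or either untreated array and 0 without 48 h replicate 2. The copper importer SLC31A1 (0.20 ± 0.12), ATP7B (0.30 ± 0.14), ABCC1 (0.12 ± 0.12), ABCC2 (0.03 ± 0.10), ABCB1 (-0.15 ± 0.12) and GSTP1 (0.18 ± 0.10) did not pass the test.

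Lysosomal and matrix genes such as LAMP2, WIPI1 and ACTA2 were higher at 48 h as well. Of 27 lysosome and autophagy genes 9 were called higher (33.3%, against 13.5% of all genes) and 1 lower. LAMP2, a lysosomal membrane protein, read 9.89 and 9.86 at 48 h, 8.84 and 9.04 in A2780CP20 and 9.90 and 10.01 in untreated A2780 (0.94 ± 0.10, limma adjusted p = 0.00157). WIPI1, which acts at the forming autophagosome, read 9.34 and 9.27 against 8.41 and 8.46, with untreated A2780 between them at 8.79 and 8.94 (0.87 ± 0.10, limma adjusted p = 0.00183). IFI30, a lysosomal thiol reductase, was the 1 lower call. The higher calls numbered 4 without 48 h replicate 1 and 2 without 48 h replicate 2. Of 30 mesenchymal and matrix genes 10 were called higher (33.3%, against 13.5% of all genes). None was called lower (2 at an unadjusted p under 0.05 in limma). ACTA2, smooth muscle actin, read 12.45 and 12.33 at 48 h, 11.54 and 11.64 in A2780CP20 and 12.54 and 12.53 in untreated A2780 (0.80 ± 0.09, limma adjusted p = 0.00182), and the matrix gene POSTN was higher by 1.84-fold. LUM, a collagen-binding proteoglycan, read 11.45 and 11.55 against 10.25 and 10.65, and its call and that of HAPLN1 were lost without 48 h replicate 2. That list had 6 higher calls without 48 h replicate 1 and 3 without 48 h replicate 2, and 5 lower calls without A2780CP20 replicate 2. Among 28 interferon-stimulated genes 3 were called higher (10.7%, against 13.5% of all genes) and 1 lower, and the 3 included IFIT1 (0.86 ± 0.08) and IFI6 (0.94 ± 0.11). Without A2780CP20 replicate 2 the calls were 6 higher and 5 lower. The secreted WNT inhibitor DKK1 read 12.46 and 12.44 at 48 h, 11.63 and 11.60 in A2780CP20 and 12.16 and 12.31 in untreated A2780 (0.83 ± 0.14), a call lost without 48 h replicate 2. On the arrays labelled 24 h the same gene read 4.42 and 4.87.

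The difference also moved with signal level and with chromosome. In 5 equal bins of genes from the dimmest to the brightest the median difference was -0.12, -0.17, -0.12, 0.05 and 0.10. Over the same bins A2780CP20 replicate 1 minus replicate 2 had medians of 0.08, 0.10, 0.05, -0.05 and -0.07, of opposite sign in each bin, and the 48 h replicates differed by -0.01 to 0.04. Among expressed genes the median difference was highest on chromosome 13 (0.26) and chromosome 4 (0.25), where A2780CP20 replicate 1 minus replicate 2 was -0.13 and -0.14. It was lowest on chromosome 19 (-0.16), where the replicates differed by 0.04. The part of this array difference in the gene calls was not tested. With cyclic loess limma called 2405 genes higher and 1392 lower, or 3797 in all, which included 3269 of the 4175. Among the gene lists above, the median of A2780CP20 replicate 1 minus replicate 2 was 0.01 for BMP feedback, 0 for FOXO, 0.07 for cholesterol, -0.005 for ATF4, -0.18 for G2/M, -0.08 for matrix genes, -0.195 for the mTOR and PI3K-AKT list, -0.16 for fatty acid synthesis and 0.125 for interferon-stimulated genes.

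**Figure D5:**
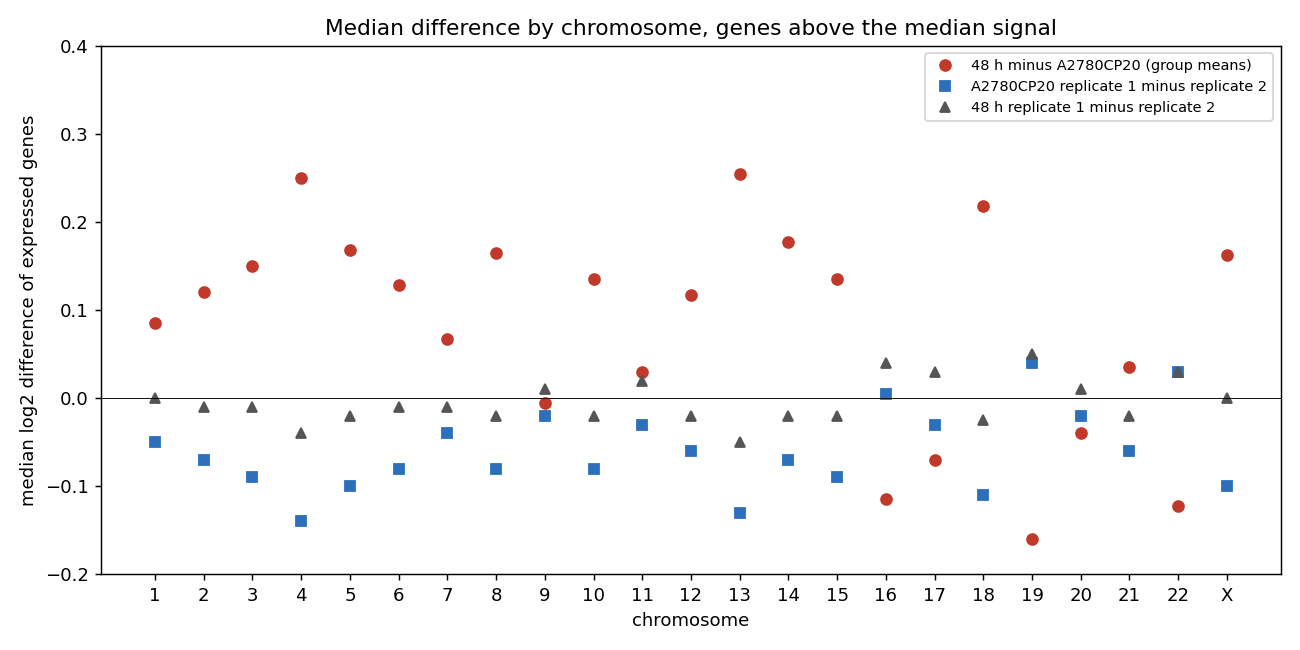
Median log2 difference of expressed genes by chromosome for 48 h minus A2780CP20 (red circles) and for replicate 1 minus replicate 2 of A2780CP20 (blue squares) and of the 48 h group (grey triangles). The red medians ran from -0.16 on chromosome 19 to 0.26 on chromosome 13, and the blue medians from -0.14 on chromosome 4 to 0.04 on chromosome 19.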

How the data were processed

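Total RNA was hybridised to Affymetrix Human Gene 1.0 ST arrays, and the deposited value table held 33297 probe sets for 8 arrays. The deposited values, from 1.8 to 14.99 with array medians of 6.66 to 6.72, were read as log2 intensities from their range. The submitters' processing notes name Partek, but no source at hand gives the background correction, normalization or probe summary. Groups came from the sample titles. Probe sets with 1 symbol (19460) were used, 1754 with several and 12083 unnamed here were left out, and the probe set with the highest mean stood for each of 769 genes that had several. Of the 18417 genes, 18389 matched RefSeq (GRCh38.p14), which gave chromosomes and promoters.

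Limma 3.58.1 in R 4.3.3 was fitted to all 8 arrays with 1 coefficient per group (residual degrees of freedom 4, prior 4.48). Tests were two-sided with Benjamini-Hochberg adjustment over all genes, and an adjusted p under 0.05 was a call. The fit was tested on simulated data with equal spread in all groups. That test does not cover the wider spread between the A2780CP20 arrays. Values are rounded to 2 decimals, and the number of arrays limits the precision. Expressed genes are those above the median signal.

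The members and the 40 gene lists were chosen with earlier results of these data known. Genes named were the 15 higher and 15 lower calls with the largest difference and no overlap, leaving out small RNAs, Y-linked genes and loci without a gene name, up to 4 called members of each list, all members of the BMP feedback and TXNIP lists, and a set of mTOR and drug-handling genes. The further members named of the FOXO, cholesterol and marker lists were chosen after their values were seen. Alternatives changed the normalization, the filter, the probe set rule, the prior, the arrays in the fit and the replicate block. Cyclic loess was added after the relation with signal level was seen.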

Additional observations from a re-analysis of the deposited data

How the results depend on the processing

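Over 19 alternatives no named gene that was called changed sign. Of 163 called named genes 70 were called in every alternative, and 93 lost the call in at least 1. With array weights by group, 2281 genes were called, 1623 higher and 658 lower. With the 4 compared arrays alone, which leave fewer samples for the spread, 1645 were called, 1201 higher and 444 lower. Leaving out 1 array at a time gave 756 to 6759 calls, 623 to 3566 higher, 133 to 3193 lower, and 100 to 381 of at least 2-fold. In those fits the lone array of a group is assumed to vary like the other groups. Quantile normalization gave 3891 calls, median centring 4060 and cyclic loess 3797. Of the calls, 59.6% were higher at 48 h as reported, 55.8% with quantile normalization and 65.2% with median centring. With the replicate number as a block 4649 genes were called, 2640 higher and 2009 lower. Replicate 1 minus replicate 2 correlated at 0.181 between the 48 h and A2780CP20 groups, which share only 2 numbers, so the numbers were not taken as pairs. The number of arrays and the wide spread between the A2780CP20 arrays limit small differences.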

Other observations

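Zinc finger genes on chromosome 19 and the other genes of that chromosome differed in opposite directions. Of 237 genes with ZNF symbols on chromosome 19, 82 were called higher at 48 h by limma (34.6%) and 9 lower, with a median of 0.28. Of the 1071 other genes of chromosome 19, 28 were called higher (2.61%) and 217 lower (20.3%), with a median of -0.21. ZNF genes elsewhere gave 52 of 257 higher (20.2%) and 11 lower (4.28%), against 13.5% and 9.16% of all genes. Without 48 h replicate 2 they gave 10 higher and 2 lower, without 48 h replicate 1 they gave 28 and 5, and without A2780CP20 replicate 2 they gave 92 and 27. The medians had the same signs with quantile normalization, at 0.32 and -0.20, and with cyclic loess, at 0.35 and -0.15. A2780CP20 replicate 1 minus replicate 2 had medians of -0.14 for the chromosome 19 ZNF genes and 0.09 for the others, and its part in the pattern was not tested. Without 48 h replicate 2 the higher ZNF calls on chromosome 19 numbered 16, without 48 h replicate 1 43 and without A2780CP20 replicate 1 54. The lower calls of the other chromosome 19 genes numbered 20, 87 and 339 without 48 h replicate 2, 48 h replicate 1 and A2780CP20 replicate 2.

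Beta protocadherins, a tandem family of neuronal adhesion genes, were singled out after their values were seen. Of 18 measured, 10 were called higher at 48 h (55.6%, against 13.5% of all genes) and 1 lower, with a median of 0.63. Among alpha protocadherins 1 of 12 was called. PCDHB14 read 7.43 and 7.33 at 48 h, 5.50 and 6.05 in A2780CP20 and 6.63 and 6.87 in untreated A2780. The members are near-identical, so probes may report more than 1 of them. Their median of A2780CP20 replicate 1 minus replicate 2 was -0.25. The count was 6 without A2780CP20 replicate 1 or 48 h replicate 1, and 5 without 48 h replicate 2.

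GLRX, a glutaredoxin that reduces protein-glutathione disulfides, read 8.14 and 8.21 at 48 h, 6.77 and 7.10 in A2780CP20 and 6.16 and 6.85 in untreated A2780 (1.24 ± 0.20, limma adjusted p = 0.00525). The arrays labelled 24 h read 8.12 and 8.11, near 48 h, and GLRX was called in 18 of 19 alternatives. Of 25 glutathione and NRF2 genes 2 were called higher and 2 lower (8% each, against 13.5% and 9.16% of all genes). Of 192 small nucleolar RNA genes 36 were called higher (18.8%) and 3 lower (1.56%), against 13.5% and 9.16% of all genes. Their median difference was 0.19. Replicate 1 minus replicate 2 had medians of -0.15 at 48 h and -0.125 in A2780CP20, and the part of this gap in the calls was not tested. With array weights by group 20 were called higher. The higher count fell without 48 h replicate 2 and rose without A2780CP20 replicate 2.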
